A study of Mus musculus with 10 samples.

Results

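Respiratory chain and ATP synthase subunits of the mitochondrion were followed in mouse teratomas, which grow when pluripotent cells are placed in a host and form many tissues at once. A gene was included when it was the only gene annotated to a probe set and its symbol began with Nduf (complex I, assembly factors named Ndufaf left out), Uqcr (complex III), Cox4 to Cox8 (complex IV) or Atp5 (complex V, the ATP synthase). The rule found 77 of the 18820 genes tested, with 36 in complex I, 7 in complex III, 17 in complex IV and 17 in complex V. Of these, 8 are tissue-specific or regulated isoforms (Cox4i2, Cox6a2, Cox6b2, Cox7a1, Cox7b2, Cox8b, Cox8c and Ndufa4l2), and the other 69 are called common subunits here. Cox7c, Ndufa13 and Uqcrc2 were measured only on probe sets shared with another gene, and Ndufb1, Ndufb4b, Ndufb4c and the 13 subunits encoded by mitochondrial DNA were not analysed here.

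The 10 teratomas grew under the skin of female nude (nu/nu) mice from J1 embryonic stem cells of a Sv/129 strain. Both mouse Vhl alleles were lost in the cells of every group (Vhl-/-), and each group carried a human VHL cDNA: wildtype in 3 tumours, R167Q in 3 and P81S in 4. Tumours were taken once their largest dimension reached 1 cm, and the labels describe P81S as resistant to apoptosis and the other genotypes as apoptotic. The study design states that the P81S tumours are 2 replicates of each of 2 clones, but which arrays share a clone, how many clones the other groups represent, the promoter of the cDNA and the age of the mice are not given in the sources used here. The title of the series names metabolism as one of its subjects, and VHL marks hypoxia-inducible factors (HIF) for destruction when oxygen is present.

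The chain passes electrons from NADH through complex I, and from succinate through complex II, to complex III, then by cytochrome c to complex IV, which reduces oxygen. The proton gradient built on the way drives ATP synthase. Most subunits come from nuclear genes transcribed in nearly all cells, whereas several small subunits of complex IV exist in a common form and in a second form made mainly in muscle, testis or lung. Nuclear respiratory factors and the PGC-1 coactivators are known to drive transcription of the nuclear subunit genes and of the factors that copy mitochondrial DNA.

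Arrays of a group resembled each other across all probe sets. Correlations were 0.984 to 0.987 within wildtype, 0.984 to 0.986 within R167Q and 0.965 to 0.986 within P81S, against 0.939 to 0.986 between groups. The groups also differed in marker lists of cell types, with 10 of 10 pluripotency markers and 8 of 9 proliferation markers lower, and 8 of 9 neuron markers higher, in P81S than in wildtype by the test used below. Of the other lists 1 of 8 pericyte and smooth muscle markers, 2 of 2 erythroid and 1 of 4 airway markers were higher, 1 of 5 endothelial markers was lower, and 0 of 5 adipocyte and 0 of 5 macrophage markers were called. These counts stand beside 34.7% of all genes called in this comparison, 17.2% higher and 17.5% lower. Without P81S replicate 2 the pericyte count was 5, the airway count 3 and the macrophage count 1. The endothelial count was then 3, with Pecam1 lower and Kdr and Tie1 higher. Without wildtype replicate 3 the pericyte count was 2 and the endothelial and airway counts 0, as was the airway count without wildtype replicate 1 or 2 or P81S replicate 3, and the erythroid count was 1 without any 1 of 7 arrays. The mean of 3 Y-linked transcripts, which mark the male donor cells, was 4.26 to 4.70 log2 in the wildtype arrays and 8.42 to 9.52 in the others. The wildtype arrays thus had little of this signal although all tumours are labelled as J1. What else differed between the wildtype and the mutant cells cannot be told apart from the cDNA in any comparison with wildtype. Between P81S and R167Q, clone cannot be told apart from genotype, since P81S came from 2 clones and the clones of R167Q are not given. Mouse Vhl read 8.49 to 8.90 log2 in P81S and 6.83 to 7.21 in the other groups, and since neither the deleted part nor the probes' position is known, this checks no label. In tissue of mixed cells, fewer cells of a type and less RNA per cell cannot be told apart, and this applies to each difference below.

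Most subunit genes differed little between P81S and wildtype, and those that passed the test were mostly lower in P81S. Genes with an adjusted p under 0.05 (limma, Benjamini-Hochberg over all genes) are referred to as called, and differences are log2 P81S minus wildtype with their standard error (SE) from 4 against 3 arrays. Of the 77 genes 1 rose, 17 fell and 59 did not pass. The 18 called make 23.4% of the members, below the 34.7% of all genes called in this comparison, and the 17 falls and the single rise stand beside 17.5% and 17.2% of all genes called lower and higher. The median difference was -0.15 log2 over the members and 0.01 over all genes, and 57 members were below 0, beside 48.3% of all genes. The median of the members was -0.09 without P81S replicate 2, and it was -0.06, with 46 below 0, without P81S replicates 1 and 2. For 46 members (59.7%) the whole 95% interval lay within 0.5 log2 of no change, as it did for 32.2% of all genes. Counted by arrays, the P81S range lay wholly below that of wildtype for 22 members and wholly above it for 2, beside 20.7% and 19.9% of all genes. At an unadjusted p under 0.05 the count was 25, beside 43% of all genes. Without wildtype replicate 1, 11 members were called lower, and 2 or 3 higher without P81S replicate 2 (2), R167Q replicate 1 (3) or R167Q replicate 3 (2). A filter on dim genes left out those with a mean under 5.98 log2, the median of the unannotated control probe sets. Of the 76 members it kept, 1 was called higher and 19 lower, beside 46.4% of the 13989 genes kept called in either direction.

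No subunit gene passed this test in R167Q against wildtype, with 0 of 77 called beside 0.0903% of all genes. At an unadjusted p under 0.05 the count was 15, beside 9.73% of all genes, and limma without the variance trend also called 0. Values nevertheless lay mostly on one side, with 65 members below 0, beside 54% of all genes, and a median of -0.12 log2, beside -0.02 over all genes. The 3 R167Q arrays all lay below the 3 wildtype arrays for 20 members, beside 12.4% of all genes, and all above for 3, beside 6.93%. Both mutants were set against the same wildtype arrays, so these counts are not independent of those for P81S. Set against each other, P81S and R167Q differed in 5 members, beside 22.5% of all genes called. Of these 1 was higher in P81S and 4 were lower, beside 12.4% and 10.1% of all genes. In this comparison 40 members were below 0, beside 46.9% of all genes, and 10 had an unadjusted p under 0.05, beside 34.2% of all genes. The count below 0 was 27 without P81S replicates 1 and 2 (median 0.06 log2, beside 0.013 over all genes). It was 53 without P81S replicates 3 and 4 (median -0.07, beside 0.027), and 28 without R167Q replicate 3. The arrays of the groups lay apart for 8 lower members, beside 14.2% of all genes, and for 2 higher ones, beside 16.5% of all genes. Without R167Q replicate 3, 3 members were called. None was called higher without P81S replicate 3 or 4 or R167Q replicate 2 or 3, and 3 were without P81S replicate 1.

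**Figure D1:**
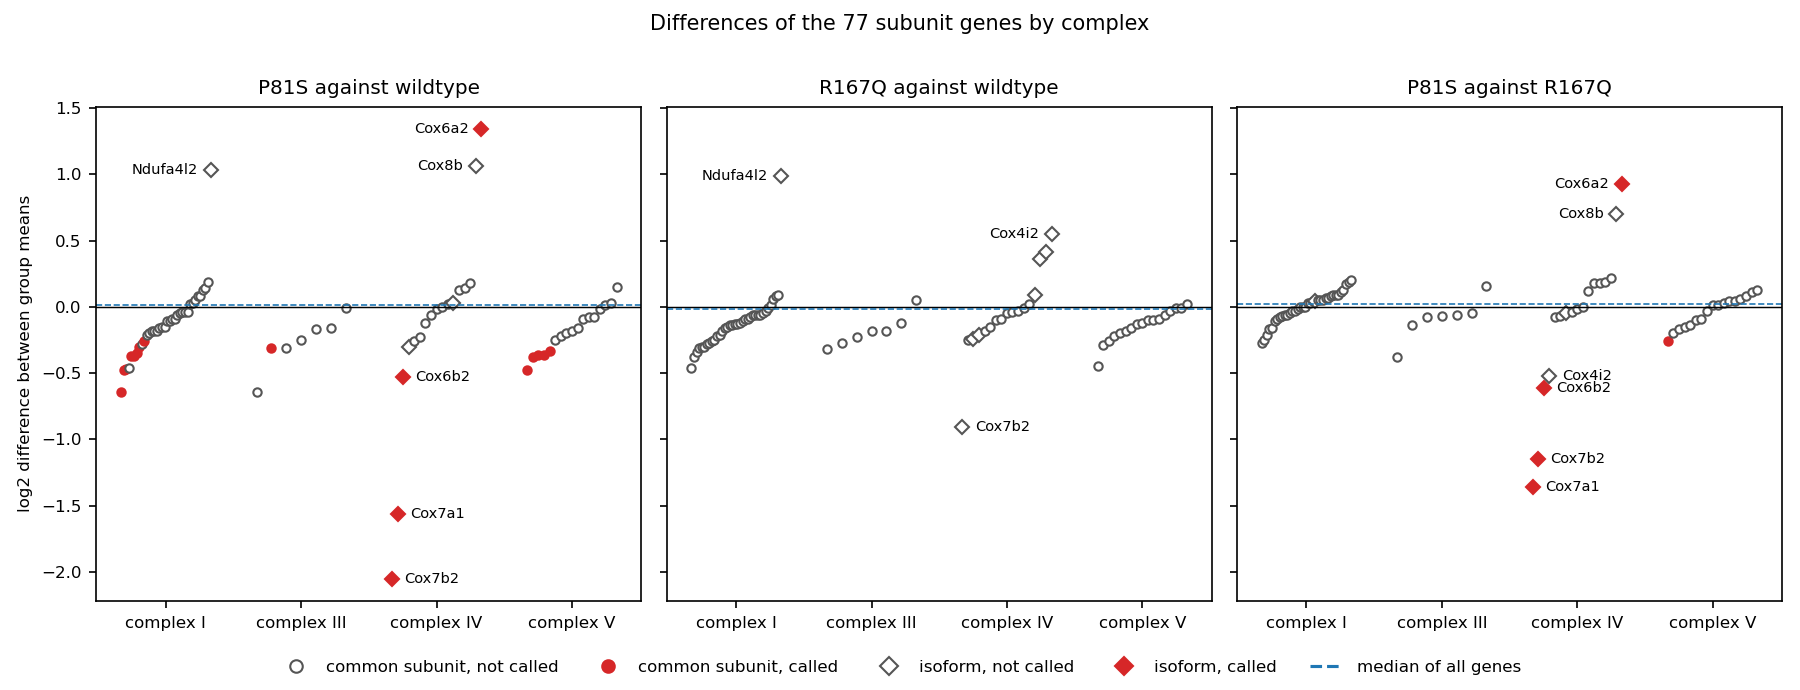
Log2 difference between group means for each of the 77 subunit genes, by complex, in the 3 comparisons. Circles are common subunits, diamonds tissue or regulated isoforms, red symbols genes called at an adjusted p under 0.05, and the dashed line is the median of all genes. Common subunits stay between -0.64 and 0.22 log2 in every panel, while isoforms of complex IV spread from -2.05 to 1.34.

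Values of single arrays are given in the order of their replicate numbers. The mean level of the 69 common subunits was 10.84, 10.82 and 10.71 log2 on the wildtype arrays, 10.61, 10.60 and 10.75 on those of R167Q, and 10.54, 10.59, 10.68 and 10.76 on those of P81S. The P81S and R167Q ranges therefore both reached above the lowest wildtype array. Among these 69 genes 14 were called in P81S against wildtype, all lower, and their differences ran from -0.64 to -0.26 log2. The called share was 20.3%, beside 34.7% of all genes called and 17.5% called lower. Without wildtype replicate 1 the count was 8, beside 29.8% of all genes called, and without wildtype replicate 2 it was 9, beside 27.6%. The plot of differences by complex shows the narrow band these genes occupy in all 3 comparisons.

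Complex I, the NADH dehydrogenase, had 8 members lower, 0 higher and 28 not called in P81S against wildtype, with a median of -0.13 log2. The called share was 22.2%, beside 34.7% of all genes called and 17.5% called lower. Ndufa7, an accessory subunit of its matrix arm, read 9.27, 9.55, 9.45 and 9.51 log2 in P81S, 10.07, 10.14 and 10.04 in wildtype, and 9.71, 9.49 and 9.93 in R167Q. Each P81S array lay below each wildtype array, and R167Q lay between or within the P81S range. The P81S difference was -0.64 ± 0.12 log2 (1.56-fold lower, adjusted p = 0.00159). Ndufs1, the largest iron-sulphur subunit of the electron path, read 9.57, 9.54, 9.50 and 9.51 in P81S, 9.94, 9.97 and 10.09 in wildtype, and 9.84, 9.73 and 9.53 in R167Q. It fell by 0.47 ± 0.10 log2 in P81S (adjusted p = 0.00348), with no overlap of the P81S and wildtype arrays.

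Ndufab1, the mitochondrial acyl carrier protein, fell by 0.37 ± 0.09 log2 in P81S (adjusted p = 0.0104), and its call ended without wildtype replicate 2, at -0.32. Ndufs6, a zinc-binding accessory subunit, fell by 0.37 ± 0.12 (adjusted p = 0.0391). Its call ended without any 1 of P81S replicates 1 to 3 or of the wildtype arrays, at -0.40 to -0.31. Ndufb4, of the membrane arm, fell by 0.30 ± 0.08 (adjusted p = 0.0156), and its call ended without wildtype replicate 1, at -0.24. Ndufa11 of the membrane arm (-0.35 ± 0.10, adjusted p = 0.0213) and Ndufv1, the subunit that binds NADH (-0.26 ± 0.07, adjusted p = 0.018), are also called and are named after their values were seen, and Ndufa4 is described with its paralogue below. Ndufa11 was no longer called without wildtype replicate 1 (-0.30) or 3 (-0.35), nor Ndufv1 without wildtype replicate 1 (-0.21). Without wildtype replicate 1, 4 complex I members were lower. Ndufc2, another membrane arm subunit, differed by -0.04 log2 with a 95% interval of -0.21 to 0.14.

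Complex III carries electrons from ubiquinol to cytochrome c. All 7 of its members were below 0 in P81S against wildtype, beside 48.3% of all genes, with a median of -0.25 log2. With P81S replicates 1 and 2 left out, Uqcrb was at 0.03 and the other members ran from -0.29 (Uqcrh) to -0.05 (Uqcrq). The called share was 14.3%, beside 34.7% of all genes called and 17.5% called lower. The 1 called was Uqcrh, the hinge protein that holds cytochrome c1, named after its values were seen. It read 11.10, 11.07, 11.13 and 11.13 log2 in P81S, 11.60, 11.52 and 11.14 in wildtype, and 11.27, 11.20 and 11.27 in R167Q. The P81S difference was -0.31 ± 0.10 (adjusted p = 0.0355). Wildtype replicate 3 lay next to the highest P81S arrays, and the call ended without any 1 P81S array or without wildtype replicate 1 or 2, at -0.32 to -0.22. Another probe set of Uqcrh was not called, and without P81S replicate 4 the complex had 2 members lower. Uqcrc1, a core protein of the matrix side, differed by -0.16 ± 0.07 in P81S and by -0.32 ± 0.08 in R167Q, and Uqcrb by -0.01 ± 0.09 in P81S. Neither was called.

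Complex V had 5 members lower, 0 higher and 12 not called in P81S against wildtype, with a median of -0.18 log2. Its called share of 29.4% stands beside the same 34.7% of all genes, of which 17.5% were lower. Atp5g2 is 1 of 3 genes whose products mature to the same c subunit of the membrane rotor. Its level was 12.23, 12.08, 12.19 and 12.19 log2 in P81S, 12.55, 12.55 and 12.50 in wildtype, and 12.43, 12.35 and 12.52 in R167Q. All P81S arrays were below all arrays of the other groups, and the differences were -0.36 ± 0.06 log2 from wildtype (adjusted p = 0.00144) and -0.26 ± 0.06 from R167Q (adjusted p = 0.0147). The second of these calls ended without R167Q replicate 1 (-0.26) or 3 (-0.22). The other copies, Atp5g1 (-0.09 ± 0.10) and Atp5g3 (-0.25 ± 0.09, adjusted p = 0.051), did not pass.

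Atp5pb, subunit b of the peripheral stalk, fell by 0.36 ± 0.07 log2 (adjusted p = 0.00224), from 11.34, 11.22 and 11.20 in wildtype to 10.87, 10.93, 10.86 and 10.90 in P81S. R167Q, at 11.07, 11.04 and 10.98, lay between these ranges. Atp5c1, the gamma subunit that forms the rotating shaft, fell by 0.33 ± 0.08 (adjusted p = 0.00956), and is named after its values were seen. Among the small membrane subunits, Atp5k fell by 0.48 ± 0.16 (adjusted p = 0.0349) and Atp5mpl by 0.38 ± 0.12 (adjusted p = 0.0301). The Atp5k call ended without any 1 of P81S replicates 1 to 3 or of the wildtype arrays (-0.53 to -0.38), and the Atp5mpl call without P81S replicate 2 or 3 or any wildtype array (-0.40 to -0.35). Without any 1 of P81S replicates 2 and 3 or wildtype replicates 2 and 3, the complex V count was 3. Atp5b, the catalytic beta subunit, differed by 0.01 log2 with a 95% interval of -0.11 to 0.13, and the delta subunit gene Atp5d of the central stalk by 0.15 ± 0.07 without passing.

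**Figure D2:**
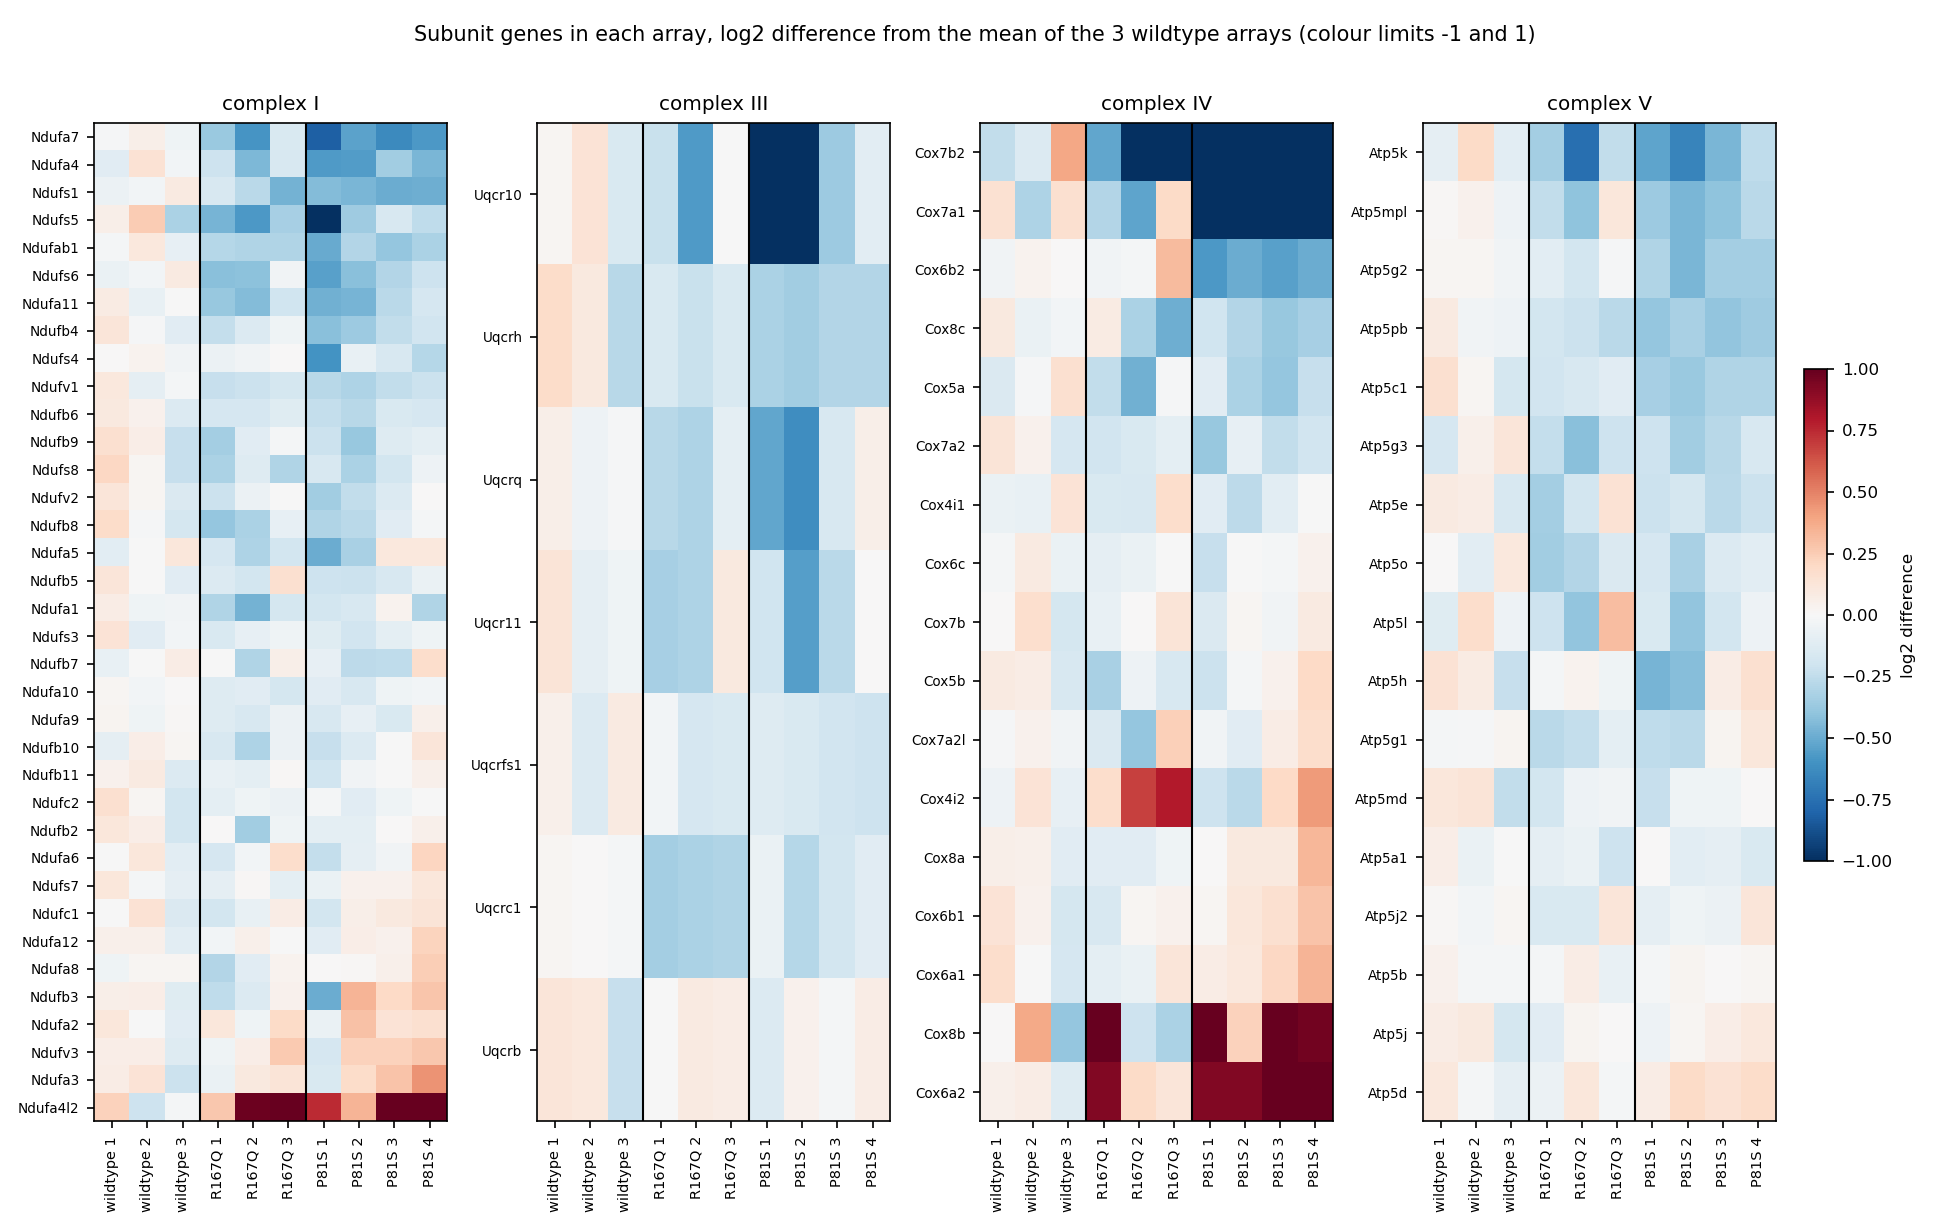
Each subunit gene (rows, by complex and ordered by the P81S difference) in each array (columns), as the log2 difference from the mean of the 3 wildtype arrays, with colours limited to -1 and 1. Most rows stay pale, the falls of Ndufa7, Ndufs1 and Atp5g2 run through all 4 P81S columns, and the lower values of Uqcr10 and Uqcrq sit in P81S replicates 1 and 2.

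The heat map also shows members that separate the P81S arrays from each other. P81S replicates 1 and 2 both lay below replicates 3 and 4 for 41 of the 77 members, beside 17.9% of all genes. Cox6a2, Ndufa5 and Cox4i2 were among them, as were all 4 members on chromosome 11, Uqcr10, Uqcrq, Atp5h and Atp5g1, named after their values were seen. Over the 1471 genes of chromosome 11, the median difference from the mean of wildtype and R167Q was -0.19 and -0.23 log2 in P81S replicates 1 and 2, and -0.01 and 0.02 in replicates 3 and 4. Uqcr10, a small subunit of complex III, read 9.48, 9.36, 10.11 and 10.37 log2 in P81S, 10.49, 10.61 and 10.32 in wildtype, and 10.25, 9.91 and 10.47 in R167Q. Atp5h, subunit d of the peripheral stalk, read 11.25, 11.29, 11.79 and 11.88 in P81S, 11.86, 11.80 and 11.49 in wildtype and 11.70, 11.75 and 11.67 in R167Q. For both genes P81S replicates 1 and 2 gave the lowest levels of all 10 arrays, and Uqcrq and Atp5g1 likewise had their lowest P81S values there. None of the 4 was called over all P81S arrays. With replicates 1 and 2 left out, the differences from wildtype were -0.23 for Uqcr10, -0.05 for Uqcrq, 0.12 for Atp5h and 0.07 for Atp5g1. With replicates 3 and 4 left out they were -1.06, -0.57, -0.45 and -0.26, each then called, with adjusted p from 0.00245 to 0.0321. The part of the shift of the whole chromosome in these values was not tested, and the labels do not say whether replicates 1 and 2 share a clone.

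In complex IV, cytochrome c oxidase, all calls fell on isoforms when members are grouped by symbol, which leaves Ndufa4 in complex I. None of the 10 common members so grouped was called in P81S against wildtype, with a median of -0.01 log2 and 1 member at an unadjusted p under 0.05. The count stayed at 0 when any 1 array was left out. Cox6c differed by -0.06 ± 0.07, Cox7b by -0.02 ± 0.09, Cox4i1 by -0.12 ± 0.11 and Cox8a by 0.13 ± 0.08. The 4 calls of complex IV, 3 lower and 1 higher, make 23.5% of its members, beside 34.7% of all genes called. They were forms known from muscle or testis, and the difference in call rates between the complexes was not tested.

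Cox7b2, the form of subunit VIIb made mainly in testis, had the largest fall of the 77 genes in P81S against wildtype. It read 4.72, 4.77, 4.68 and 4.96 log2 in P81S, 6.58, 6.69 and 7.22 in wildtype, and 6.31, 5.63 and 5.83 in R167Q. The groups did not overlap, with P81S lowest and R167Q below wildtype. P81S differed from wildtype by -2.05 ± 0.20 log2 (adjusted p = 5.48e-05) and from R167Q by -1.15 ± 0.20 (adjusted p = 0.00268). R167Q differed from wildtype by -0.91 ± 0.21 (adjusted p = 0.283). The P81S values, and 2 of the R167Q values, lie under 5.98, the median of the array's unannotated control probe sets, which is not a measured background. With P81S set at that median, Cox7b2 was at least 1.81-fold lower than in wildtype, and no fold is given against R167Q. Cox6b2, the testis form of subunit VIb, read 7.06, 7.14, 7.09 and 7.14 in P81S, 7.60, 7.67 and 7.64 in wildtype, and 7.60, 7.62 and 7.95 in R167Q. All P81S arrays were lower than all others, with differences of -0.53 ± 0.13 log2 from wildtype (adjusted p = 0.00829) and -0.61 ± 0.13 from R167Q (adjusted p = 0.00658). Cox8c, which is also known from testis, differed by -0.30 ± 0.15 from wildtype and was not called.

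Cox7a1, the muscle and heart form of subunit VIIa, read 7.04, 7.55, 7.93 and 7.82 log2 in P81S, 9.30, 8.84 and 9.31 in wildtype, and 8.86, 8.62 and 9.34 in R167Q. Wildtype and R167Q overlapped, and P81S lay below both. The differences were -1.56 ± 0.24 log2 from wildtype (2.96-fold, adjusted p = 0.000541) and -1.36 ± 0.24 from R167Q (2.56-fold, adjusted p = 0.00282). The muscle form of subunit VIa, Cox6a2, went the other way, at 7.74, 7.74, 8.50 and 8.66 in P81S, 6.87, 6.89 and 6.69 in wildtype, and 7.74, 7.01 and 6.94 in R167Q. Every P81S array was above every wildtype array, and R167Q replicate 1 reached the lowest P81S values. Cox6a2 rose by 1.34 ± 0.27 log2 against wildtype (2.53-fold, adjusted p = 0.00285) and by 0.93 ± 0.27 against R167Q (adjusted p = 0.03). The call against R167Q ended without P81S replicate 3 or 4, or R167Q replicate 2 or 3, at 0.77 to 0.82.

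Cox8b, the third muscle form, was not called and varied within groups, at 7.18, 6.31, 8.04 and 7.05 log2 in P81S, 6.09, 6.46 and 5.70 in wildtype, and 7.68, 5.88 and 5.77 in R167Q. Its difference from wildtype in P81S was 1.06 ± 0.48 (adjusted p = 0.117). Cox4i2, a form of subunit IV known from lung and from cells short of oxygen, read 7.24, 7.17, 7.64 and 7.87 in P81S, 7.39, 7.58 and 7.36 in wildtype, and 7.62, 8.13 and 8.24 in R167Q. All R167Q arrays were above all wildtype arrays, by 0.55 ± 0.22 log2, without passing the test (adjusted p = 0.466), and P81S overlapped both groups.

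**Figure D3:**
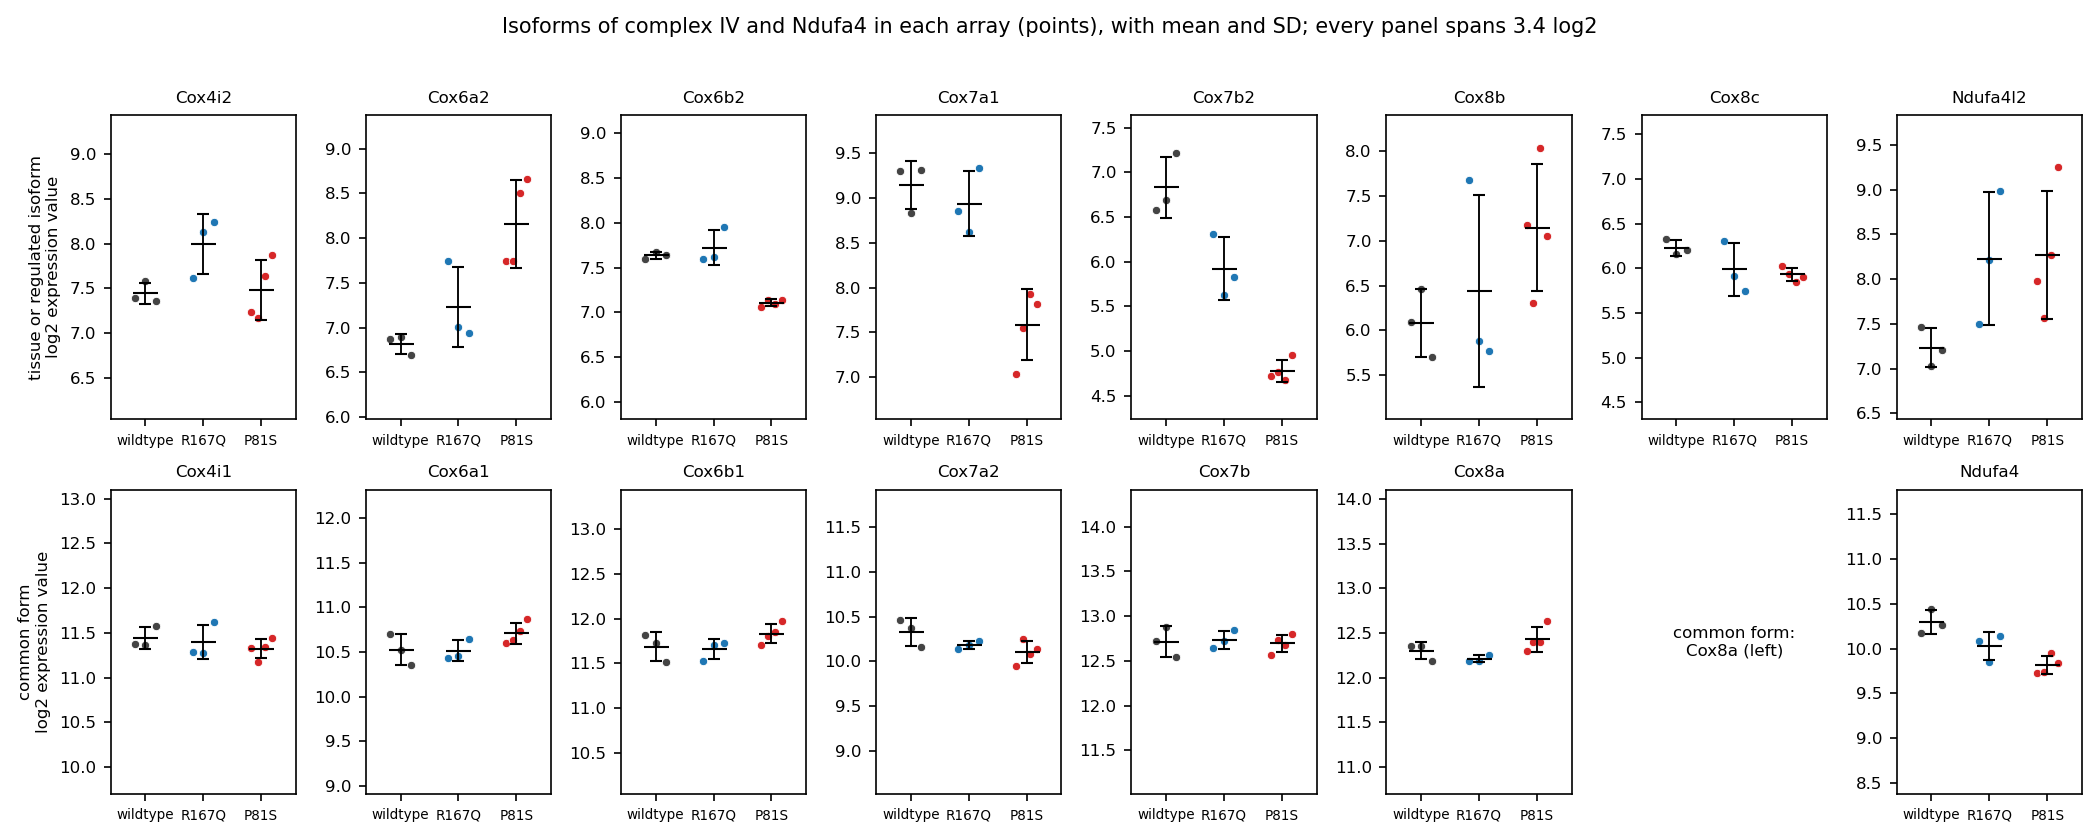
Log2 expression of the 8 tissue or regulated isoforms (top) and of their common forms (bottom) in every array, with group mean and SD; axes differ between panels but each spans the same range. The isoforms Cox7b2, Cox7a1 and Cox6b2 lie lower and Cox6a2 higher in all 4 P81S arrays than in wildtype, while the common forms except Ndufa4 overlap between P81S and wildtype.

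Ndufa4 fell in P81S against wildtype, and its paralogue Ndufa4l2 was higher without passing the test. Ndufa4 was first assigned to complex I and is now counted as a subunit of complex IV, and Ndufa4l2 is known as a gene that HIF-1 induces. Ndufa4 read 9.73, 9.74, 9.95 and 9.84 log2 in P81S, 10.18, 10.44 and 10.27 in wildtype, and 10.09, 9.85 and 10.14 in R167Q, and fell by 0.48 ± 0.11 in P81S against wildtype (1.39-fold, adjusted p = 0.00535). Ndufa4l2 read 7.98, 7.57, 8.27 and 9.25 in P81S, 7.46, 7.03 and 7.21 in wildtype, and 7.50, 8.21 and 8.98 in R167Q. All arrays of both mutants were above all wildtype arrays, by 1.03 ± 0.40 log2 in P81S (adjusted p = 0.0656) and 0.99 ± 0.42 in R167Q (adjusted p = 0.497), and neither difference passed the test. The P81S difference passed in 5 of the 23 settings tried. Ndufa4l2 and Cox4i2 are also known from pericytes, and the mean of 8 pericyte and smooth muscle markers ran from 7.29 to 8.16 log2 in wildtype, 8.16 to 8.74 in R167Q and 7.75 to 9.41 in P81S. The part of these cells in the differences was not tested.

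The balance between an isoform and its common form was compared as the difference of their log2 values within each array. From wildtype to P81S this balance shifted by 1.51 log2 for Ndufa4l2 over Ndufa4, 1.16 for Cox6a2 over Cox6a1, -0.67 for Cox6b2 over Cox6b1, -1.34 for Cox7a1 over Cox7a2 and -2.04 for Cox7b2 over Cox7b. In these 5 pairs no P81S array overlapped a wildtype array. The Cox7b2 shifts rest on P81S values under the control median of 5.98 and are no exact folds. An exact two-sided permutation test gave p = 0.0286 for each, the smallest that 4 against 3 arrays allow, and an adjusted p of 0.0857 over the 24 tests of 8 pairs in 3 comparisons, so none passed. Against R167Q the shifts were -1.28 for Cox7a1 over Cox7a2, -1.11 for Cox7b2 over Cox7b and -0.79 for Cox6b2 over Cox6b1, with the same exact p and adjusted p. In R167Q against wildtype 3 against 3 arrays cannot go below p = 0.1 by the exact test, which Ndufa4l2 over Ndufa4 (1.26), Cox4i2 over Cox4i1 (0.60) and Cox7b2 over Cox7b (-0.93) reached.

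Markers of the tissues in which these isoforms are known were read in the same arrays. The mean of 8 germ cell and testis markers ran from 8.56 to 8.91 log2 on the wildtype arrays, from 8.13 to 8.38 on those of R167Q and from 4.99 to 6.40 on those of P81S. In P81S 8 of 8 were called lower against each of the other groups, beside 17.5% of all genes against wildtype and 10.1% against R167Q. Dazl, which germ cells need for translation, differed by -4.45 ± 0.45 log2 from wildtype. Cyct, the cytochrome c of testis, read 4.48, 4.63, 4.37 and 4.12 in P81S, 7.71, 8.17 and 8.25 in wildtype, and 7.42, 6.88 and 7.60 in R167Q. The groups did not overlap, and Cyct in P81S differed by -3.64 ± 0.21 log2 from wildtype (adjusted p = 7.62e-06) and by -2.90 ± 0.21 from R167Q (adjusted p = 0.000248). All P81S values of Cyct lie under the control median of 5.98, and with P81S set at that median it was at least 4.18-fold lower than in wildtype and at least 2.49-fold lower than in R167Q. The common cytochrome c gene Cycs differed by -0.08 ± 0.06 from wildtype and was not called. The germ cell markers, the pluripotency markers, Cox7b2 and Cox6b2 were all lower in P81S than in both other groups. In R167Q against wildtype the germ cell mean was also lower, whereas Cox6b2 differed by 0.09 ± 0.14. The part of these cell types in the falls of Cox7b2 and Cox6b2 was not tested.

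The mean of 19 muscle markers ran from 6.77 to 7.60 log2 on the wildtype arrays, from 6.96 to 8.77 on those of R167Q and from 6.71 to 8.87 on those of P81S, with 0 of 19 called in any comparison and a median difference of 0.73 in P81S against wildtype. Without P81S replicates 1 and 2, 10 of the 19 were called, and without replicate 2 alone 6 were. R167Q replicate 1, the highest of its group for the muscle mean (8.77), was also the highest for Cox8b and Cox6a2. The muscle means of P81S replicates 1 to 4 were 7.90, 6.71, 8.87 and 8.36, and that of replicate 2 was the lowest of all arrays. Cox6a2 was higher in all P81S arrays than in wildtype, with 7.74 in replicate 2. Cox7a1, the other muscle form, was lower in all P81S arrays than in wildtype. Brown fat, another tissue that uses muscle forms of complex IV, had 2 of 6 markers called higher in P81S against wildtype, Cidea and Ppara, and the defining Ucp1, not called at group means of 5.13 to 5.33, under the control median of 5.98. The share of 33.3% is near the 34.7% of all genes called. That count was 4 without P81S replicate 3 and 1 without any other single array. The part of muscle or fat tissue in these differences was not tested.

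**Figure D4:**
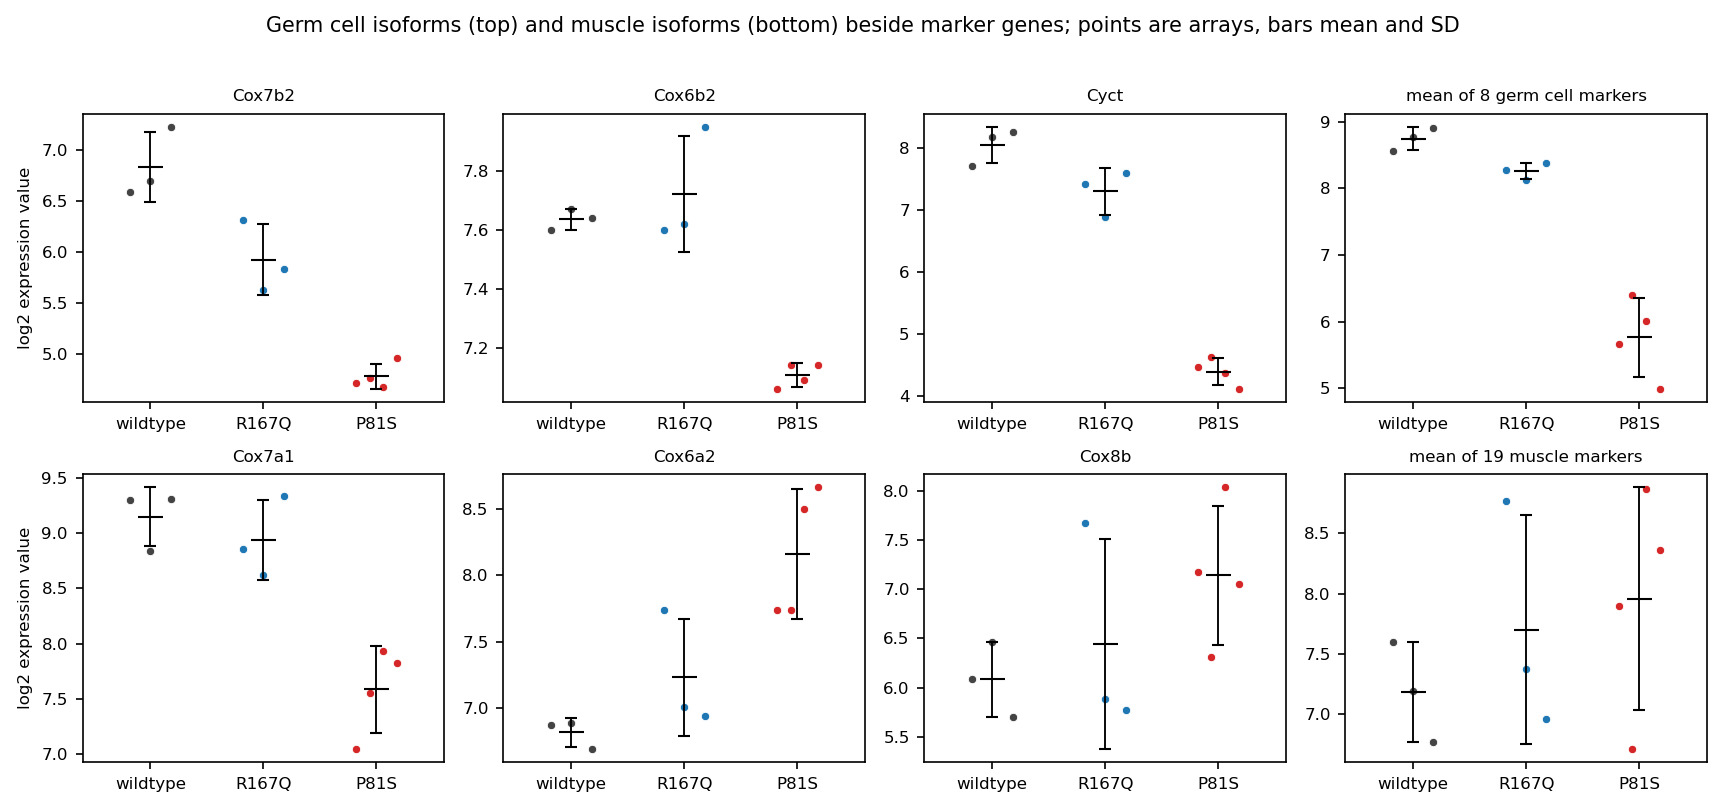
Log2 values in each array of the testis forms Cox7b2, Cox6b2 and Cyct beside the mean of 8 germ cell markers (top), and of the muscle forms Cox7a1, Cox6a2 and Cox8b beside the mean of 19 muscle markers (bottom), with group mean and SD. The 4 top panels place every P81S array lowest, whereas the muscle mean of P81S, 6.71 to 8.87, spans that of wildtype.

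Promoters of these genes are shown because an isoform and its common form are known to be read from separate genes with separate start sites. The windows hold the 250 bases before the annotated start in RefSeq on build GRCm38.p6, on the strand of the gene, and CG dinucleotides are in capitals. Of the 77 members 64 had an entry. The median count of CG in the window was 14 over these members (14.5 over 60 common members and 6 over 4 isoforms), and 6 over 27025 promoters of all genes. Cox7a1 at chr7:30183921-30184170 (plus strand, 4 CG) and Cox7a2 at chr9:79759854-79760103 (minus strand, 14 CG) are the muscle and the common form:
Cox7a1: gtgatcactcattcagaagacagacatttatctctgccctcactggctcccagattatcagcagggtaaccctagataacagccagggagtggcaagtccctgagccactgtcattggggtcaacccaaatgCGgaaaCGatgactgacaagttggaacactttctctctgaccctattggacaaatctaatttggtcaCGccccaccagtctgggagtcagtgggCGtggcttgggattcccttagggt
Cox7a2: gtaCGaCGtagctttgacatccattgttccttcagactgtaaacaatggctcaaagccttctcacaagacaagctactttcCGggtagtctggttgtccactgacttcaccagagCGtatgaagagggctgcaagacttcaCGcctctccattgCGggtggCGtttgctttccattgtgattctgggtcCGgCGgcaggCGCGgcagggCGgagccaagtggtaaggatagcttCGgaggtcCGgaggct
For subunit VIIb the order was the opposite, with 9 CG for the testis form Cox7b2 at chr5:71548206-71548455 (minus strand) and 5 for the common form Cox7b at chrX:106015450-106015699 (plus strand):
Cox7b2: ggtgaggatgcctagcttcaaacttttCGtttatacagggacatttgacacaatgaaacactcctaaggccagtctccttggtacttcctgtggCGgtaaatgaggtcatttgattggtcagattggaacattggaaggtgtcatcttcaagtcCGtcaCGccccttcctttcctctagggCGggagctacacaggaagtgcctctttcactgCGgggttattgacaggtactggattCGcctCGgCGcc
Cox7b: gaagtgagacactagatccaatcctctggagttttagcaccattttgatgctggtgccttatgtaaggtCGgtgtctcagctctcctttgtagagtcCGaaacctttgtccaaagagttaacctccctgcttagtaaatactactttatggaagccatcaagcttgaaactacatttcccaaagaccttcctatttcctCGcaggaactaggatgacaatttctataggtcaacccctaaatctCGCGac

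The promoters were also searched for GCGCATGCGC, the palindromic core bound by nuclear respiratory factor 1, which reads the same on both strands. It occurred in 4 of 64 members (6.25%), Atp5g2, Atp5k, Cox6a1 and Ndufa11, and in 0.781% of all promoters of this length. Atp5g2 at chr15:102671048-102671297 (minus strand) is shown because it was the common subunit called in both P81S comparisons, with the motif in capitals:
Atp5g2: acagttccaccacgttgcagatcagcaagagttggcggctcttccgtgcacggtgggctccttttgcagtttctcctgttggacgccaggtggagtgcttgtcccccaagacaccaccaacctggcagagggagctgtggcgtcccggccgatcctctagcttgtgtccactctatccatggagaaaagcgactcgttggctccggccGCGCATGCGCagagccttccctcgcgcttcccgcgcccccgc
A match is a description of the sequence and shows no binding. Of these genes Atp5g2, Atp5k and Ndufa11 were called lower in P81S against wildtype, and Cox6a1 (0.18 ± 0.11) was not called. Over all genes 17.5% were called lower, and other members called lower, such as Ndufa7, Atp5pb and Atp5c1, had no match. The Nrf1 gene, which encodes this factor and is named after its values were seen, fell by 0.48 ± 0.13 log2 (adjusted p = 0.0148). The part of this factor in the differences of the subunit genes was not tested.

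Regulators of mitochondrial biogenesis were called for 11 of 12 genes in P81S against wildtype, 2 higher and 9 lower, beside 34.7% of all genes. Ppargc1a, the coactivator PGC-1 alpha, read 10.33, 10.54, 10.50 and 10.72 log2 in P81S, 9.31, 8.94 and 9.00 in wildtype, and 8.72, 9.79 and 9.26 in R167Q. All P81S arrays were above all others, with a rise of 1.44 ± 0.21 log2 against wildtype (2.71-fold, adjusted p = 0.000451) and 1.27 ± 0.21 against R167Q (adjusted p = 0.00223). Ppargc1b, the related PGC-1 beta, named after its values were seen, rose by 0.70 ± 0.17 against wildtype (adjusted p = 0.00827). Pprc1, the remaining member of the family, fell by 1.09 ± 0.20 (adjusted p = 0.00155). Tfam, which packages and transcribes mitochondrial DNA, read 7.93, 8.40, 8.06 and 8.03 in P81S, 8.80, 9.02 and 9.13 in wildtype and 8.71, 8.60 and 8.59 in R167Q, a difference of -0.88 ± 0.14 from wildtype (1.84-fold lower, adjusted p = 0.000649). The mitochondrial RNA polymerase gene Polrmt fell by 0.51 ± 0.11 and its partner Tfb2m by 0.63 ± 0.13. Without wildtype replicate 3 the list had 5 members lower. Against R167Q 6 of the 12 were called, 2 higher and 4 lower, beside 22.5% of all genes called, and 1 without R167Q replicate 1. In R167Q against wildtype 0 of the 12 were called.

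**Figure D5:**
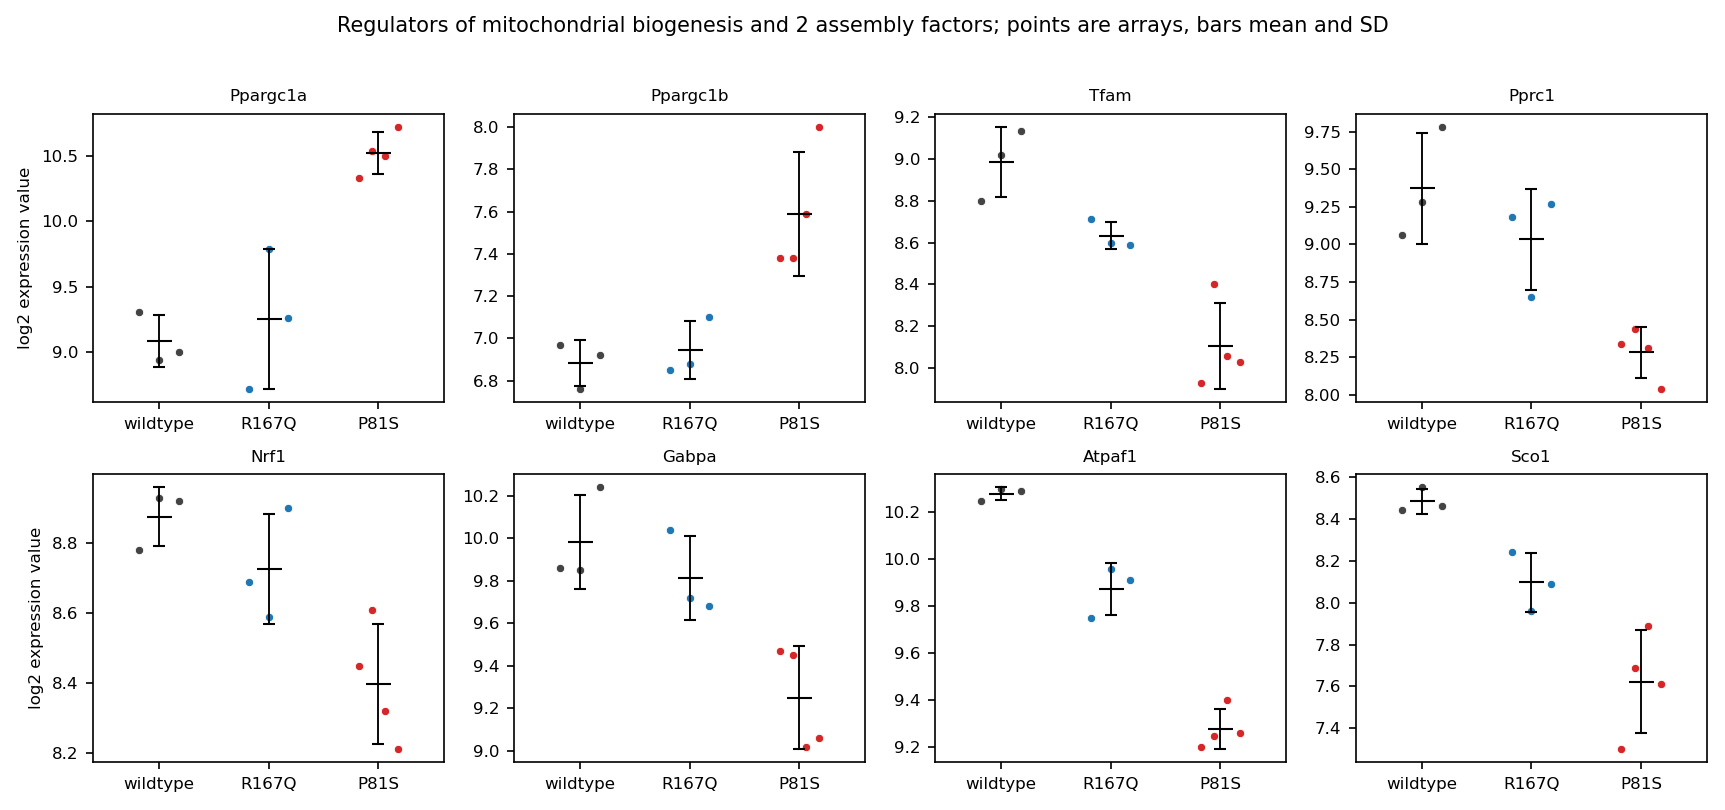
Log2 values in each array of 6 regulators of mitochondrial biogenesis and of the assembly factors Atpaf1 (ATP synthase) and Sco1 (complex IV), with group mean and SD. Ppargc1a and Ppargc1b lie higher, and Tfam, Pprc1, Nrf1, Gabpa, Atpaf1 and Sco1 lower, in all 4 P81S arrays than in wildtype.

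Assembly factors, which build the complexes without staying in them, were lower or not called in P81S against wildtype. For complex I 4 of 14 were lower (Acad9, Ndufaf1, Ndufaf2 and Ndufaf4, from -0.55 to -0.45 log2), for complex III 1 of 6 (Uqcc3), for complex IV 10 of 19 and for complex V 2 of 4 (Atpaf1 and Atpaf2), with 0 higher in each list. These shares of 28.6%, 16.7%, 52.6% and 50.0% stand beside 34.7% of all genes called and 17.5% called lower, and those of complexes I and III are below the first. Sco1, which carries copper to complex IV, fell by 0.87 ± 0.15 log2 (adjusted p = 0.0012), Cox11, also of the copper pathway, by 0.75 ± 0.16 (adjusted p = 0.00336), and Lrpprc, which stabilises mitochondrial mRNA, by 0.63 ± 0.13 (adjusted p = 0.00338). None of the 10 common subunits grouped by symbol in complex IV was called, Ndufa4 not being among these, and the contrast with the assembly factors was not tested. Without wildtype replicate 1, 2 or 3 the complex IV list had 4, 5 and 3 members lower, and the complex I list had 1 without wildtype replicate 3 and 2 without any 1 of P81S replicates 1, 3 and 4 or wildtype replicate 2. Uqcc3 lost its call without P81S replicate 4 or any 1 wildtype array, and Atpaf2 without P81S replicate 1 or 2 or any 1 wildtype array. Atpaf1, the chaperone of the beta subunit of ATP synthase, read 9.20, 9.25, 9.40 and 9.26 in P81S, 10.25, 10.30 and 10.29 in wildtype and 9.75, 9.96 and 9.91 in R167Q. The groups did not overlap, and P81S differed by -1.0 ± 0.09 log2 from wildtype (adjusted p = 4.21e-05) and by -0.60 ± 0.09 from R167Q (adjusted p = 0.00149). Atp5b, the subunit it binds, differed by 0.01 from wildtype.

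Complex II and the cytochrome c electron carriers gave 3 of 7 lower and 0 higher. The called share was 42.9%, beside 34.7% of all genes called and 17.5% called lower. Beside Cyct the lower genes were Sdhd, a membrane anchor of succinate dehydrogenase, which fell by 0.44 ± 0.09 log2 (adjusted p = 0.00361), and Cyc1, cytochrome c1 of complex III, which fell by 0.30 ± 0.07 (adjusted p = 0.00653). Cyc1 was 11.05, 11.05, 11.15 and 11.17 in P81S, 11.46, 11.34 and 11.42 in wildtype and 11.17, 11.11 and 11.09 in R167Q, so that the mutants overlapped below wildtype. HIF targets that act on or near the chain went both ways, with 3 of 6 higher and 2 lower in P81S against wildtype. Their called share of 83.3% stands beside 34.7% of all genes called, 17.2% higher and 17.5% lower, and 3 were called without wildtype replicate 2. Vegfa, the endothelial growth factor gene included as a HIF reference, rose by 1.50 ± 0.22 log2 in P81S (adjusted p = 0.00043) and differed by 1.06 ± 0.23 in R167Q (adjusted p = 0.239). Higd1a, a small protein that binds complex IV, rose by 0.77 ± 0.19 in P81S (adjusted p = 0.00921), and Pdk1, the kinase that slows pyruvate entry to the mitochondrion, fell by 0.39 ± 0.09 (adjusted p = 0.00707).

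Of the 23 genes with several probe sets, another probe set had the opposite sign for 2 in P81S against wildtype, 3 in R167Q against wildtype and 6 in P81S against R167Q. Of the 6 called in P81S against wildtype, 4 had another probe set called as well, Ndufa11 and Uqcrh being the others. Log2 array values carry no read depth. Precision depends on how many arrays a group has and on the spread of each gene between them. In P81S against wildtype the SE was, for example, 0.05 for Atp5b and 0.48 for Cox8b.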

How the data were processed

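Total RNA of 10 teratomas (wildtype 3, R167Q 3, P81S 4) was hybridised to Affymetrix arrays. The deposited log2 values, 1 per probe set and array, came from processing for which RMA and Partek are named, per the submitters' processing notes; versions and settings are not given in the sources used here. Array medians lay between 6.97 and 7.11, and the values were used as deposited. Of 35556 probe sets, 6616 form an unannotated control block, 21218 carry 1 gene in the platform annotation, 1881 several and 5841 none. The probe set with the highest mean stood for each gene, which left 18820 genes.

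Group means over all 10 arrays were fitted with limma 3.58.1 in R 4.3.3 (lmFit, eBayes with trend, two-sided; 7 residual and 3.85 prior degrees of freedom), with Benjamini-Hochberg adjustment over all genes of a comparison. Nothing says that a group's tumours came from separate animals, so p-values measure only the spread between these tumours. Isoform balance was tested by exact permutation. The procedure was tested on simulated data. The members, gene lists and tests were chosen with earlier results of these data known.

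The named members were the isoforms, up to 12 called rises and 12 called falls per comparison, the 2 members of highest mean per complex and the largest difference not called per comparison; from each list, up to 3 genes with the smallest p per comparison. The 22 alternatives covered quantile normalisation, median centring, a filter on dim genes, the mean of probe sets, no variance trend, only the compared groups, the replicate number as a block, P81S replicates 1 and 2 or 3 and 4 left out, the 3 ways to pair P81S arrays into clones (duplicateCorrelation, statmod 1.5.0), and each array left out. Promoters came from RefSeq on GRCm38.p6.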

Additional observations from a re-analysis of the deposited data

How the results depend on the processing

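Under the 22 alternatives no called difference of a named gene changed sign. Against wildtype, 10 of the 18 calls in P81S were kept in every setting in which the gene was tested: Atp5c1, Atp5g2, Atp5pb, Cox6a2, Cox6b2, Cox7a1, Cox7b2, Ndufa4, Ndufa7 and Ndufs1. The count of 18 became 12 without P81S replicates 1 and 2, 20 without replicates 3 and 4, 22 with median centring, 18 to 23 with clones paired, and 12 to 20 with 1 array left out. Against R167Q the count of 5 became 3 with the replicate block and 3 to 7 with 1 array left out, and Cox6b2, Cox7a1 and Cox7b2 were called in every setting. R167Q against wildtype gave 0 throughout. Equal replicate numbers did not pair the arrays: correlations of their deviations ran from -0.28 to 0.21, and in 4 of 18 pairings of an array with another group, the closest array of that group had the same number. The block gave 17 calls in P81S against wildtype. The cause of these shifts was not tested. Signal near the control block limits Cox7b2, which the filter on dim genes left out. Some values also lie under the control median of 5.98 for Cox8c in P81S and R167Q, and for Cox8b in wildtype and R167Q.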

Other observations

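Rule genes measured only on probe sets shared with another gene can be given as values of the probe set. Those annotated to Cox7c and Gm10012 had group means of 12.58, 13.11 and 13.03 log2 in P81S, 12.69, 13.23 and 13.11 in wildtype, and 12.72, 13.24 and 13.16 in R167Q. Of the pair annotated to Ndufa13 and Tssk6, the brighter had means of 9.06 in P81S, 8.77 in wildtype and 8.85 in R167Q, and the other 5.34, 5.24 and 5.21. Of the pair annotated to Uqcrc2 and Pdzd9, the brighter had 11.97, 12.02 and 11.87, and the other 5.15, 4.93 and 5.0.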
